A study of Homo sapiens and Mus musculus with 4 samples.

Results

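The regions described here are the TEAD peaks around 3 genes of the MEF2 family, MEF2A, MEF2C and MEF2D, in human RD cells and in mouse YAP-ERMS cells. A peak was taken when its midpoint lay within 200 kb of the gene's transcription start site (TSS). The rule gave 58 peaks of 69714 in the 2 deposited lists: 18 of 22681 in RD and 40 of 47033 in YAP-ERMS. The TSS positions, known to 1 kb, were 100.106 Mb on chromosome 15 for MEF2A, 88.200 Mb on chromosome 5 for MEF2C and 156.471 Mb on chromosome 1 for MEF2D, all in hg19. In mm9 they were 74.518 Mb on chromosome 7 for Mef2a, 83.643 Mb on chromosome 13 for Mef2c and 87.946 Mb on chromosome 3 for Mef2d.

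Chromatin immunoprecipitation with sequencing (ChIP-seq) was done with 4 libraries. RD, an established line of human embryonal rhabdomyosarcoma, gave 1 TEAD and 1 IgG library, and no treatment is stated for it. YAP-ERMS gave 1 TEAD and 1 input library from mouse cells of tumours driven by YAP under Myf5-Cre or Pax7-CreER. These are Cre drivers of the myogenic lineage and, for Pax7-CreER, an inducible driver in muscle satellite cells. The labels do not say which driver the sequenced cells carried, how many tumours or clones they came from, the age of the mice or which TEAD paralogs the antibody binds. There were no replicates, so no value has a replicate error and no p-value is given. Sequencing depth is unknown, and the files hold no expression with which to check the cell types by their markers.

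MEF2 proteins are transcription factors with a MADS-box DNA-binding domain. In skeletal muscle they act with the MyoD family to switch on genes of differentiation, and class IIa histone deacetylases hold them in check. TEAD proteins bind M-CAT elements, first described in promoters of muscle genes, and recruit the co-activators YAP1 and TAZ. MEF2B, the fourth family member, is not among the genes described here.

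The M-CAT core, GGAATG or its reverse complement CATTCC, was searched on both strands in the 250 bases upstream of annotated start sites, to show which MEF2 promoters carry the letters that TEAD reads. Sequences are from RefSeq, GRCh38.p14, a later human build than that of the peaks, and which start corresponds to the TSS used here was not determined. All 3 human genes matched the table, which holds 3 starts for MEF2A, 7 for MEF2C and 1 for MEF2D. The core was found upstream of 2 of these 11 starts, and upstream of 11.9% of the 35116 starts in the table. The first sequence below is the outermost MEF2C start and carries the core, in capitals, beginning 236 bases upstream. The next 2 are stretches of 30 bases upstream of the second MEF2A start, with the core 205 bases upstream and a MEF2 site 23 bases upstream, in capitals. The MEF2 site was searched as CTA and TAG with any 4 bases between them, which reads the same on both strands.
MEF2C, outermost start, 250 bases: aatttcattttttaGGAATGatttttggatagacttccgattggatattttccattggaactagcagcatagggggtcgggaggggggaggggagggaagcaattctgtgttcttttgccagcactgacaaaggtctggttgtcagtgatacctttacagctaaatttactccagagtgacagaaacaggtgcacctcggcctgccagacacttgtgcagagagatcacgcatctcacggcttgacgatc
MEF2A, second start, M-CAT core: ccttgtctttccCATTCCaattactctaga
MEF2A, second start, MEF2 site: ggcttgtctcCTAAAAATAGccccggtgtg
The MEF2 site was found upstream of 1 of the 11 starts and of 2.36% of all starts. The AP-1 motif TGANTCA was found upstream of 1 of the 11, the innermost MEF2C start, which holds it 64 and 37 bases upstream, and of 6.57% of all. The E-box CANNTG was found upstream of 5 of the 11 and of 61.8% of all. None of the M-CAT, MEF2 and AP-1 matches overlapped. The only MEF2D start in the table, which is not the outermost of the gene, held no M-CAT core, which says only that these letters are not in that window. A match is a description of the sequence and not a bound site. In neither list did a peak lie within 5 kb of the MEF2A or MEF2C TSS used here. The printed matches are therefore not tied to any listed peak.

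The first question was how many TEAD peaks surround each gene. In RD, MEF2D had 12 peaks, MEF2A 4 and MEF2C 2. In YAP-ERMS, Mef2a had 17, Mef2d 15 and Mef2c 8. MEF2C thus had the fewest listed peaks in both lists, while MEF2A was in the middle of the order in RD and first in YAP-ERMS. At scores of 160 or more the RD order of these genes turned, with 0 peaks at MEF2A and 1 at MEF2C. The exact Poisson 95% intervals, which hold for counting error alone and assume that peaks are independent, were 6.20 to 21.0 for MEF2D, 1.09 to 10.2 for MEF2A and 0.242 to 7.22 for MEF2C in RD. In YAP-ERMS they were 9.90 to 27.2 for Mef2a, 8.40 to 24.7 for Mef2d and 3.45 to 15.8 for Mef2c. All intervals within a list overlapped. Overlap is not a test of a difference, and differences between the genes were not tested.

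These counts were set beside adjoining tiles of 400 kb, the length of a gene's window, laid over every numbered chromosome and X between its outermost peaks. In RD, 12 or more peaks, as at MEF2D, were held by 4.85% of the 7316 tiles. The 4 peaks of MEF2A were reached by 32% of tiles and the 2 peaks of MEF2C by 50.7%. In YAP-ERMS, 17 or more peaks, as at Mef2a, were held by 11.3% of 6399 tiles, 15 or more, as at Mef2d, by 15.6%, and 8 or more, as at Mef2c, by 42%. The median tile held 2 peaks in RD and 6 in YAP-ERMS, against 2 at MEF2C and 8 at Mef2c. Tiles include stretches with few genes, and 33.9% of them in RD and 19.2% in YAP-ERMS held no peak, whereas each window was centred on a gene. On chromosome 1 alone, 7.41% of tiles reached the MEF2D count.

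**Figure D1:**
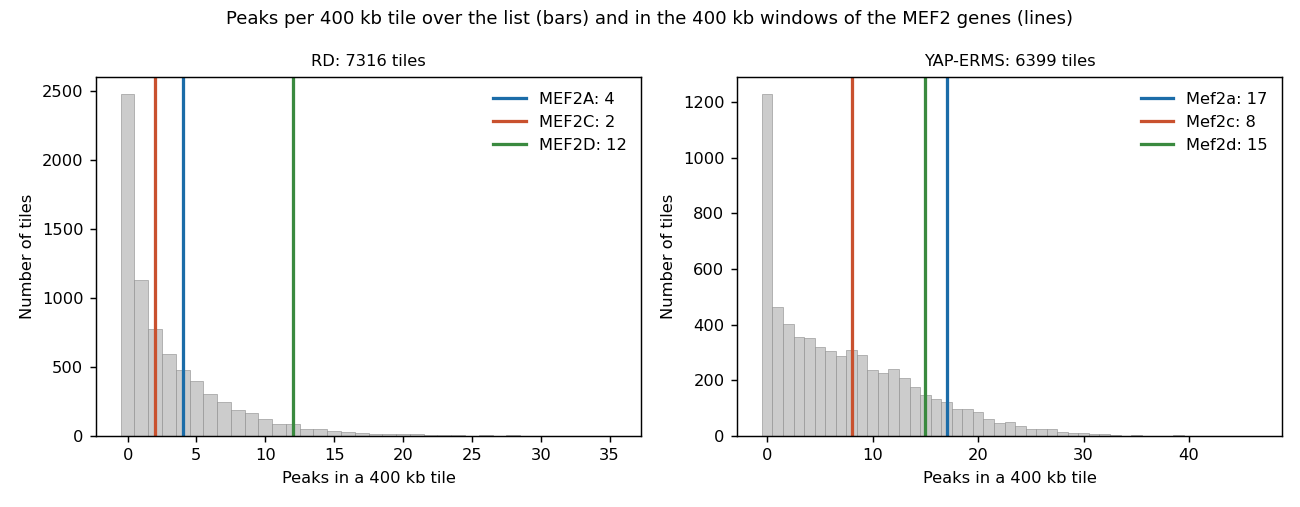
Number of 400 kb tiles (vertical axis) by the number of peaks they hold (horizontal axis), in RD on the left and YAP-ERMS on the right, with a coloured line at the count of each MEF2 window. The RD lines stand at 2, 4 and 12 peaks and the YAP-ERMS lines at 8, 15 and 17, with MEF2D in RD farthest into the tail, where 4.85% of tiles lie.

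Each peak carries the authors' own score, read as 10 times the negative log10 of its p-value, which depends on depth and control and was ranked only within a list. Over the 3 genes the median score was 164 in RD, against 189 over the whole list, and 231 in YAP-ERMS, against 205. Of the 18 RD peaks, 8 scored above the median of the list (44.4%, Wilson 95% interval 24.6% to 66.3%), as 50% of all peaks do by construction. Of the 40 YAP-ERMS peaks, 20 did (interval 35.2% to 64.8%), where the background is again 50%. Both intervals assume that peaks are independent, although many of these peaks lay close to one another. A score above 1000 was reached by 1 of the 18 RD peaks, against 5.47% of the list, and by 2 of the 40 YAP-ERMS peaks, against 7.38%. As a set, the MEF2 peaks scored near the background of their lists.

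**Figure D2:**
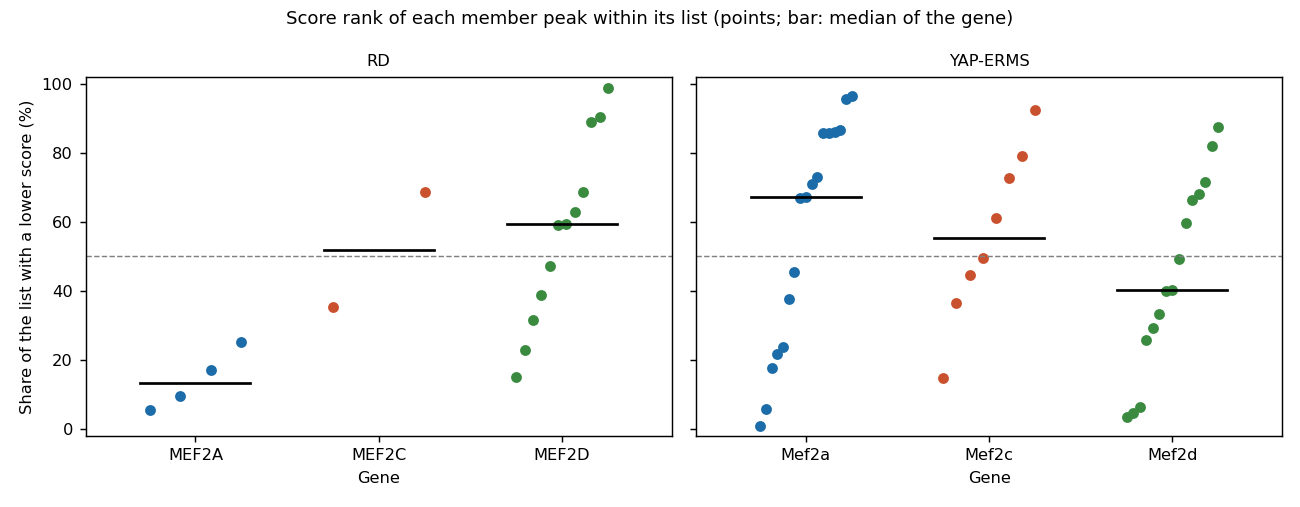
Share of the whole list that scores lower than each MEF2 peak (vertical axis, percent), by gene (horizontal axis), in RD on the left and YAP-ERMS on the right. Points are peaks, black bars are the median of a gene, and the dashed line is the middle of the list. The 4 RD points of MEF2A all lie below the line, from 5.57% to 25.3%, while those of Mef2a in YAP-ERMS run from 0.916% to 96.5%.

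Only 1 TSS per gene was used, and other annotated starts were not placed on hg19 or mm9. MEF2D is also made by skeletal muscle as a muscle-specific splice form. It was the only gene of the 3 with peaks within 5 kb of its TSS, and had them in both lists. In RD there were 3. The peak at chr1:156470980-156471492 lay over the TSS within the precision of its position, its midpoint 0.24 kb upstream, with a score of 306.8. A stronger one at chr1:156473070-156473472, 2.27 kb upstream, scored 673.87, higher than 88.9% of the list. The other, at chr1:156466278-156466767, 4.48 kb downstream, scored 259.19. All 3 stood above the list median and formed 1 chain, a run of peaks with gaps of no more than about 12 kb. For comparison, 6.34% of 10 kb tiles in the RD list hold a peak. Those tiles are not promoters, so this is the background of the list and not that of start sites.

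In YAP-ERMS, the peaks nearest the Mef2d TSS lay on its 2 sides, and the TSS itself fell in a stretch of 2.31 kb without a peak. The upstream one, at chr3:87943692-87944878, 1.72 kb away, scored 726.88, the highest score in the Mef2d window and above 87.6% of the list. The downstream one, at chr3:87947194-87948181, 1.69 kb away, scored 84.03, close to the lowest score listed. With a peak 8.58 kb upstream that scored 163.62, they formed a chain of 3 peaks. In the YAP-ERMS list 14.9% of 10 kb tiles hold a peak. In both lists, then, the highest scoring peak within 10 kb of the MEF2D start lay about 2 kb upstream of it. Whether the human and mouse peaks lie on matching sequence was not determined.

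Most other MEF2D peaks lay far upstream. In RD, 10 of the 12 peaks were upstream in the direction of transcription, 7 of them between 150 and 200 kb away. Among these was the highest score of all 18 RD peaks, 1819 at chr1:156633957-156634684, 163 kb upstream, higher than 98.9% of the list. This peak was also the widest of the MEF2D window, at 728 bp. The next highest, 733.98 at chr1:156631736-156632396, lay 161 kb upstream in the same chain. That chain held 6 peaks over 16.4 kb, and its other 4 members scored from 110.01 to 239.18. Chains of 5 or more peaks hold 9.38% of the RD list and held these 6 of the 18 MEF2 peaks. Several of the 6 lay less than 1 kb from the next, so this number depends on how the listed peaks were split. The remaining far peaks scored 235.75 at 191 kb upstream, 96.97 at 70.3 kb upstream and 178.15 at 122 kb downstream. In RefSeq the next protein-coding gene upstream of MEF2D is IQGAP3, which encodes a scaffold protein of the cytoskeleton, and the next downstream is RHBG, an ammonium transporter. Which genes lie nearest to the far peaks was not determined.

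In YAP-ERMS, 9 of the 15 Mef2d peaks were upstream and 6 downstream. Those 150 to 200 kb upstream numbered 6, and 4 of them formed a chain over 17.4 kb that began 155 kb from the TSS. The next highest scores of the window, 556.05 at chr3:87786330-87787975 and 374.14 at chr3:87790300-87791544, belonged to it, 159 and 155 kb upstream. Its other 2 members scored 316.09 and 123.11. The remaining 2 peaks 150 to 200 kb upstream belonged to another chain of 4, of which only these 2 lay in the window. The 6 downstream peaks were all below the list median, with scores from 84.03 to 163.29, while 6 of the 9 upstream ones were above it. The widest, at chr3:88100466-88102287, 155 kb downstream, was 1822 bp with a score of 163.29.

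**Figure D3:**
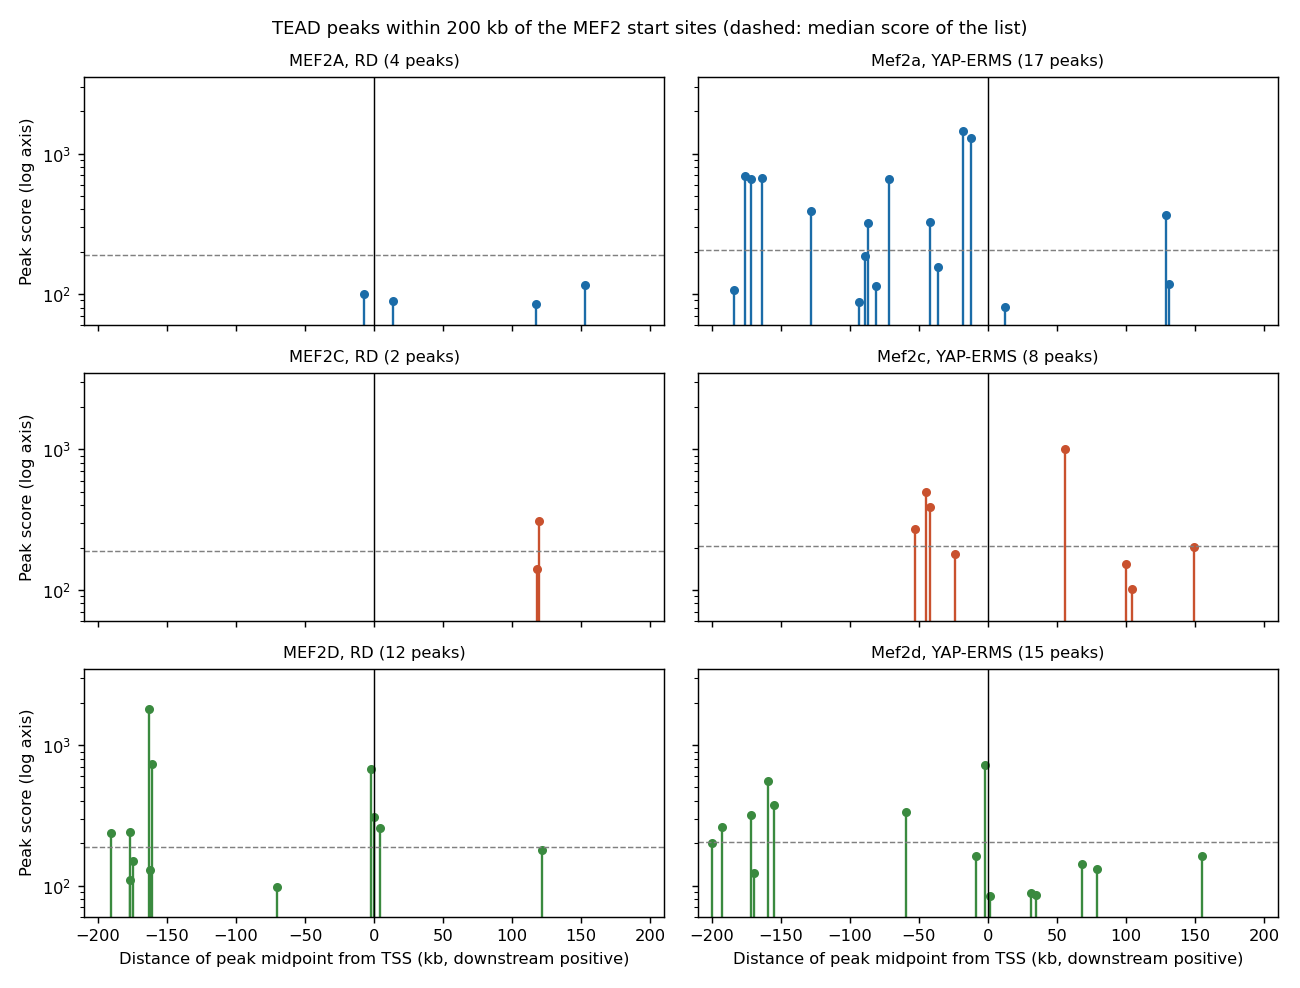
Score of each TEAD peak (vertical log axis) by the distance of its midpoint from the TSS (horizontal axis, kb, downstream positive), for MEF2A, MEF2C and MEF2D in RD on the left and YAP-ERMS on the right. Each stem is 1 peak, and the dashed line is the median score of the list, 189 in RD and 205 in YAP-ERMS. Peaks flank the MEF2D TSS in both lists, and none comes within 23 kb of the MEF2C TSS in either. The tallest RD stem is the peak of 1819 at 163 kb upstream of MEF2D.

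MEF2A, a family member important in postnatal muscle and heart, had 4 peaks in RD, where the median tile holds 2, and 17 in YAP-ERMS, a longer list whose median tile holds 6. The 4 RD peaks had scores of 100.44 at chr15:100098938-100099094, 89.63 at chr15:100119530-100119721, 85.56 at chr15:100223314-100223456 and 115.49 at chr15:100258787-100259006. They lay 6.98 kb upstream and 13.6, 117 and 153 kb downstream of the TSS. None reached the list median of 189, each lay alone, outside any chain, and each was narrower than the median at its score. Their widths were 143 to 220 bp. At a score of 160 or more, which 58% of the RD list reaches, MEF2A had no peak left.

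In YAP-ERMS, the Mef2a window had the highest count and the highest scores of the 3 genes. The top peak, 1440.54 at chr7:74535042-74536431, lay 17.7 kb upstream, and the second, 1292.58 at chr7:74529205-74531112, lay 12.2 kb upstream. They scored above 96.5% and 95.5% of the list and formed a pair. The next, 693.86 at chr7:74693051-74694661, lay 176 kb upstream. In all, 14 of the 17 peaks were upstream 10 of the 17 scored above the list median, and 11 scored 160 or more, against 60.9% of the list. The pair's peak at 12.2 kb upstream and one at chr7:74505449-74506275, 12.1 kb downstream, were equally near the TSS within its precision of 1 kb. The downstream one was the weakest of the window with a score of 81.01. The TSS thus stood in a stretch of 22.9 kb without a peak, and 42.1% of the gaps between neighbouring peaks of the list are at least as long. Those gaps make up 91.5% of the total length between peaks.

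Upstream of Mef2a the peaks were grouped. The longest chain held 5 peaks over 24.3 kb, from 71.4 to 93.2 kb upstream. Its members scored 658.21, 114.26, 322.82, 185.10 and 87.26 in order of distance from the TSS. The first of them, at chr7:74587598-74591163, was 3566 bp wide, the widest of the 40 YAP-ERMS members and 2.68-fold wider than the median peak at its score. A second chain of 4 peaks over 22.1 kb, 163 to 184 kb upstream, held 3 peaks with scores from 659.68 to 693.86 and 1 of 106.33. Chains of 5 or more hold 17.6% of the YAP-ERMS list, and held 5 of the 40 MEF2 peaks, all at Mef2a. In human RefSeq, LYSMD4 overlaps MEF2A, LRRC28 is the next protein-coding gene upstream and ADAMTS17, a secreted metalloprotease, the next downstream. Neighbours in the mouse were not analysed here.

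MEF2C, required for heart development and for sarcomere assembly in skeletal muscle, had 2 peaks in RD and 8 in YAP-ERMS. Both RD peaks lay side by side downstream of the TSS. The one at chr5:88080558-88080958, 119 kb away and 401 bp wide, scored 306.99, and the one at chr5:88081688-88081922, 118 kb away, scored 139.75. They were less than 1 kb apart, so they count as 1 when such peaks are joined. No RD peak lay upstream of MEF2C within 200 kb. The TSS fell in a stretch of 486 kb without a peak, against a median gap of 32.8 kb in the list. Only 5.54% of gaps are at least that long, but these long gaps make up 50.6% of the total length between peaks. In human RefSeq the nearest protein-coding neighbours are CETN3 upstream and TMEM161B downstream.

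In YAP-ERMS, Mef2c had 4 peaks on each side. The highest score, 998.75, was that of chr13:83698647-83699907, 56.3 kb downstream, above 92.6% of the list. The next 2, 493.51 at chr13:83597737-83599351 and 387.12 at chr13:83600364-83602038, lay 44.5 and 41.8 kb upstream. With a peak of 270.79 at 52.9 kb they made up the longest chain, 3 peaks over 12.3 kb, and the peak of 387.12 was the widest of the window at 1675 bp. The nearest to the TSS was chr13:83619062-83620070, 23.4 kb upstream, with a score of 180.82. The other 3, from 100 to 149 kb downstream, scored from 101.09 to 202.44. The TSS lay in a stretch of 78.6 kb without a peak, and 14.7% of the gaps of the list are at least as long. Those gaps make up 69.2% of the total length between peaks. Scores above the list median were held by 4 of the 8 peaks.

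**Figure D4:**
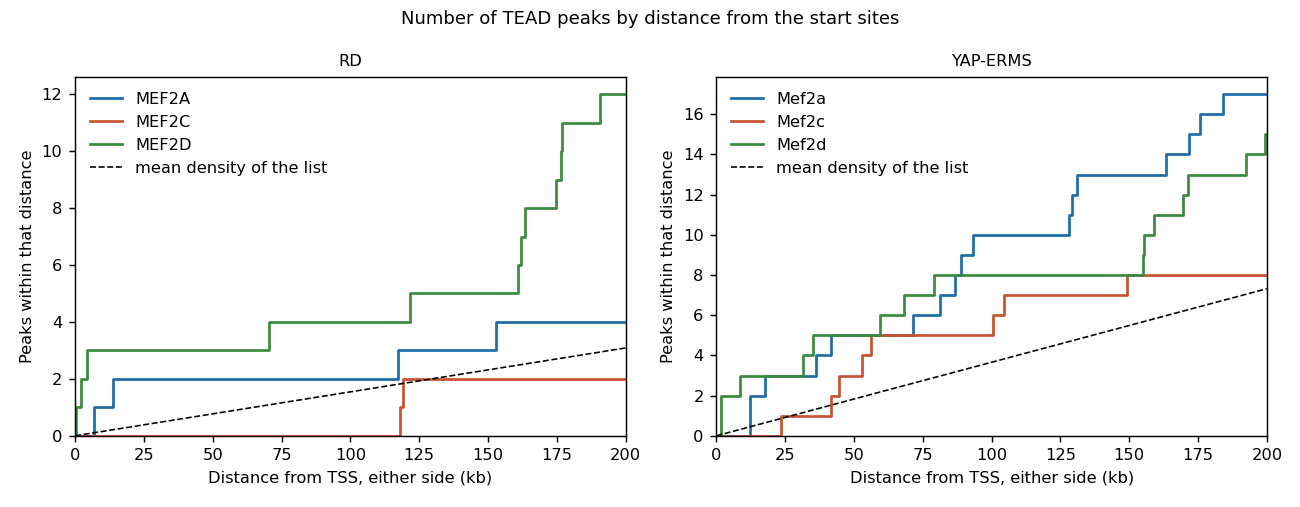
Number of TEAD peaks within a given distance of the TSS on either side (vertical axis) by that distance (horizontal axis, kb), in RD on the left and YAP-ERMS on the right, 1 line per gene. The dashed line is the mean density of the list, which gives 3.09 peaks in RD and 7.32 in YAP-ERMS at 200 kb. The RD line of MEF2D rises by 3 peaks within 5 kb and by 7 beyond 150 kb, and that of MEF2C stays at 0 up to 118 kb.

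Because higher scoring peaks are wider, width was also set against peaks of like score in the same list, as a difference on the log2 scale. In RD the median difference was -0.26 at MEF2A, -0.13 at MEF2C and 0.16 at MEF2D. Wider than the median at their score were 0 of 4, 0 of 2 and 8 of 12 peaks in that order, where 49.6% of the list is. In YAP-ERMS the medians were -0.02 at Mef2a, 0.06 at Mef2c and 0.24 at Mef2d, and 8 of 17, 5 of 8 and 11 of 15 peaks were wider, where 49.9% of the list is. MEF2D thus had the highest median in both lists. The share of the window covered by peaks was 1.27% at MEF2D, 0.178% at MEF2A and 0.159% at MEF2C in RD, against 0.292% over the list. It was 5.80% at Mef2a, 4.76% at Mef2d and 2.43% at Mef2c in YAP-ERMS, against 2.20%.

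The limit of 200 kb fell close to peaks at Mef2d only. There the outermost peak inside it lay 199.4 kb upstream with a score of 201.87, and the next outside lay at 206.1 kb with a score of 152.74. The limit thus cut a chain of 4 peaks, of which 2 lay inside. At the other genes the first peak beyond the limit was 225 to 526 kb from the TSS, with scores from 84.67 to 343.07. The nearest peaks beyond the limit on the upstream side of MEF2D and MEF2C in RD lay at 240 and 368 kb.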

How the data were processed

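TEAD binding was measured by ChIP-seq in RD and YAP-ERMS cells, with 1 TEAD and 1 control library each. Alignment was with Bowtie2 to hg19 and mm9, per the submitters' processing notes. The deposited files are 1 peak list per cell type with positions and a score per peak. Peak names in the deposited lists are those MACS writes, and the lists' names state a p-value limit of 1e-08, IgG as control for RD and input for YAP-ERMS. The sources used here do not give versions, read filters or duplicate removal. The authors' scores depend on depth and on the control, so lists were not compared by score.

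TSS positions came with the rule that chose the genes. Gene strands are background knowledge, checked in human against RefSeq. No annotation of hg19 or mm9 was used, so peaks were not assigned to exons or introns, and other genes of the pathway were not analysed here. Tiles were whole 400 kb tiles. Chains joined neighbouring peaks with gaps of at most 12.5 kb. Width at like score is log2 width less the median log2 width of the peak's bin among 50 score bins. Positions are 1-based. Peaks were named by rule: for each gene and list, the 3 highest scores, the nearest to the TSS, the widest and the longest chain, or all where there were 5 or fewer. Window counts, chains and widths were tested on simulated data. Scripts used scipy 1.17.1, pandas 2.3.3 and numpy 2.4.6 under Python 3.11.15. The genes and measures were chosen with earlier results of these data known.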

Additional observations from a re-analysis of the deposited data

How the results depend on the processing

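With windows of 100 kb on each side, the RD counts became 2 at MEF2A, 0 at MEF2C and 4 at MEF2D (6 in all), and the YAP-ERMS counts 10 at Mef2a, 5 at Mef2c and 8 at Mef2d (23 in all). At scores of 160 or more, held by 58% of the RD and 60.9% of the YAP-ERMS list, RD had 0 peaks at MEF2A and 1 at MEF2C (9 in all), and YAP-ERMS had 11 at Mef2a and 9 at Mef2d (26 in all). Both follow from the narrower selection, and MEF2D led in RD and Mef2a in YAP-ERMS under each, but MEF2A fell behind MEF2C in RD at scores of 160 or more. Joining peaks within 1 kb left 1 peak of 2 at MEF2C and 9 of 12 at MEF2D in RD. The share of tiles was not computed for joined peaks. Counting any overlap with the window, or moving the TSS by 0.5 kb, moved no count by over 1.5 times.

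The share of tiles with at least a gene's count rises by construction when tiles without a peak are left out. Over tiles that hold a peak it was 48.3% for MEF2A, 76.7% for MEF2C and 7.34% for MEF2D in RD. In YAP-ERMS it was 14.0% for Mef2a, 51.9% for Mef2c and 19.4% for Mef2d. At scores of 160 or more, over all tiles, the share was 55.4% for MEF2C and 4.15% for MEF2D in RD. In YAP-ERMS it was 11.5% for Mef2a, 33.3% for Mef2c and 18.1% for Mef2d. MEF2A then had no peak, so no share was computed. Over tiles of the gene's own chromosome, an alternative chosen after seeing the data like the shift of the TSS, it was 26.3% for MEF2A, 46.8% for MEF2C, 7.41% for MEF2D, 8.85% for Mef2a, 52.4% for Mef2c and 16.6% for Mef2d. The cause was not tested. No paired analysis was possible because each group had 1 library. Without replicates or known depth, a window with few peaks may hold binding below the authors' limit.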
